A study of Mus musculus with 8 samples.

Results

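State 21 is the column numbered 21 in a table of 42 cell states of the gastrulating mouse embryo, 1 of 42 columns, and it was taken as deposited, with all 712 genes of the table. The table gives numbers and no names for its states. All 14 listed heart tube markers had their highest level of all states in state 21, so it is described here as heart tube-like. The marker list includes the markers given for state 21 and was chosen with earlier results of these data known, so the name was not tested. The weight lies on the genes of state 21 outside the sarcomere and on what it shared with states 15 and 41. The cells came from whole wild-type embryos, made from B6D2F1 oocytes injected with B6/CAST F1 sperm, cultured to blastocysts and carried by pseudopregnant CD-1 females. They were isolated over 5 stages, with an allowance for the delay that transfer causes. There were 8 libraries, of which 1 came from embryonic day 6.5 (10 embryos), 1 from day 7.0 (9 embryos), 2 from day 7.5 (7 and 4 embryos), 2 from day 8.0 and 2 from day 8.5 (10 embryos each), and all embryos of a library were pooled. The stage of 1 day 8.5 library follows its title and stage label, since its description names day 8.0, and no value below depends on it.

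Each value is the centre of a state, called its level here, a deposited score with no stated scale. The highest level in state 21 was 1.75 and the median 0.060, and 7 genes of the table were listed at 0 there. The summed level of state 21 over all genes was 154, which ranked 5 among sums of 73.6 to 166. Because the columns carry no library, stage, cell number or depth per state, no level has a replicate error and no comparison below has a test. Differences are therefore subtractions of levels, and a gene was counted when the difference reached 0.5. A middle level could belong to all cells of a state or to some of them, and the table cannot tell these apart.

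The heart tube is the first beating organ of the embryo, formed when cardiac mesoderm of the crescent fuses at the midline. Its muscle cells assemble sarcomeres, in which myosin thick filaments slide along actin thin filaments anchored at Z-discs. They also express smooth muscle actin and its partners early on, and later lose much of it. Many sarcomere and smooth muscle genes carry CArG boxes, the binding sequence of serum response factor, near their start, while Nkx2-5, GATA and T-box factors are the textbook regulators of the cardiac programme.

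The sequences before the start of several leading genes of state 21 are shown because they let the contractile genes of heart and smooth muscle be compared at the CArG box. A CArG box was taken as 10 bases that begin with a pair of C, end with a pair of G and hold A or T alone in between, which reads as a CArG box on either strand. The sequences are RefSeq's (GRCm38.p6), 5′ to 3′ on the gene's strand, and capitals mark a CArG box or, where stated, the word CCCTATATGG. That word has a C between its end pairs and so does not meet this strict rule. Looser forms of the box were not counted, so absence by the rule does not mean absence of such a form.

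Actc1, chr2:114052888-114053125 (-), word then CArG box: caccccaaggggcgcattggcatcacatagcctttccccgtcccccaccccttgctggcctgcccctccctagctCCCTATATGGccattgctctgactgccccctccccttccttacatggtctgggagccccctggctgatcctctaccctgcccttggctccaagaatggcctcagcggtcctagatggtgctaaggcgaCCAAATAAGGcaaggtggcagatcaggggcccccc

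Myl7, chr11:5898783-5899032 (-), CArG box: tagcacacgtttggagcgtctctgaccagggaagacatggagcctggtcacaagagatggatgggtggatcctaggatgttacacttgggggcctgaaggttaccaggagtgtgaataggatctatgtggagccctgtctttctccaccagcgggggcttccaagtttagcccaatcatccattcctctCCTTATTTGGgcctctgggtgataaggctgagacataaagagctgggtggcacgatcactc

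Acta2, chr19:34255438-34255467 (-), word: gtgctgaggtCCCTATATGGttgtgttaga

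Myl9, chr2:156775293-156775322 (+), CArG box: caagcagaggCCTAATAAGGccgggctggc

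Myl3, chr9:110763583-110763612 (+), CArG box: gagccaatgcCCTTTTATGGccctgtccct

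Nebl, chr2:17462999-17463028 (-), CArG box: gctcccatctCCTAAATTGGctggaaatgc

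Fbxl22, chr9:66514796-66514825 (-), CArG box: aaaagaaatcCCTTTTAAGGaaaacttgta

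Of the 47 genes higher in state 21 described below, 38 had a RefSeq promoter, and 6 of these (15.8%) held a CArG box in the 250 bases before the start, namely Actc1, Myl7, Myl3, Nebl, Myl9 and Fbxl22. The box was present in 2.84% of the 493 table genes with a promoter and in 1.62% of all 27025 promoters. In Myl7 it lay 61 to 52 bases before the start, and in Actc1 47 to 38 bases before it. The Actc1 stretch shown above holds 238 of the 250 bases and stops short of the start. The start here is that of the RefSeq promoter. The stretches shown for Actc1, Acta2, Myl3 and Nebl lie inside the GENCODE M21 extents of these genes, which begin further upstream. Boxes near those outer starts are not given here. The word CCCTATATGG, the only 10-base word with CC at its start and GG at its end that stands before both Actc1 and Acta2, was picked after the sequences had been read. It occurred before 9 genes (0.0333%), of which 2 were in the table, Actc1 (175 to 166 bases before the start) and Acta2 (84 to 75 bases). Other motifs were searched on both strands in the same windows. The M-CAT sequence CATTCC, the binding sequence of TEAD factors, was found in 17 of the 38 (44.7%) against 19.7% of table genes and 14.4% of all promoters. A GATA sequence, with A or T before those letters and a purine after them, was found in 14 (36.8%) against 24.3% and 29.7%, the MEF2 box in 3 (7.89%) against 2.43% and 3.42%, and the NKE sequence TNAAGTG in 3 (7.89%) against 11.6% and 11.4%. A match describes letters in this window and is neither a bound site nor a cause, and Actc1 and Acta2 are related actin genes.

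State 21 carried the sarcomere programme together with smooth muscle genes, and its summed levels of vessel, blood, endoderm and ectoderm markers were far below those of the states that led those lists. The heart tube list, which includes the markers given for state 21, summed to a level of 18.2 there. The sum was 5.24 in state 6, the next state, 3.51 in state 41 and 3.17 in state 15. Among the 6 markers given for it, Actc1, cardiac actin, had a level of 1.67 against at most 0.649 elsewhere, and Myl7, the atrial regulatory light chain, 1.75 against at most 0.926. Ttn, the giant spring of the sarcomere, had 1.32 against at most 0.166. Myh6, the alpha myosin heavy chain, had 1.08 and was below 0.022 in every other state. Ankrd1 (1.25) and Wnt2 (0.743), neither of them a sarcomere component in the lists used, completed the set. The endothelium and endocardium list, with 9 measured members such as Pecam1 (0.011) and Cdh5 (0.0061), summed to 0.278 in state 21 against 7.25 in state 32. The primitive blood list (7 measured) summed to 0.683 against 7.36 in state 22, with the alpha globin gene Hba-a1 at 0.403 and its near-identical copy Hba-a2 at 0.16, between which reads cannot be assigned with certainty. Endoderm markers (13 measured) summed to 1.30 against 14.1 in state 40, and ectoderm markers (9 measured) to 0.740 against 3.62 in state 24. Somite markers (5 measured) summed to 0.054. By the same lists the smooth muscle sum was 4.65 in state 21, 3.64 in state 41, 3.11 in state 15 and 1.86 in state 34, and the extraembryonic and amnion mesoderm sum was highest in state 41 (15.2) and state 15 (12.6). The sum for second heart field and splanchnic mesoderm was highest in state 6 (3.71), with state 21 next (3.09). None of the 7 proepicardium markers was measured, so that cell type was not analysed here.

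In all, 47 of the 712 genes (6.6%) were at least 0.5 higher in state 21 than the mean of the other 41 states, and 0 (0%) were that much lower. The lowest level in state 21 was 0, so a gene with a mean under 0.5 elsewhere had no room to count as lower. Over all genes the difference had a median of -0.035 and an SD of 0.272 across genes. Of the 47, 17 belonged to the sarcomere lists, of whose 44 genes 18 were measured, and 30 did not, which is 4.32% of the 694 measured genes outside those lists. How the 712 genes were chosen is not given. A gene near 0 elsewhere may have entered the table only through state 21. Shares of the gene lists, here and below, are therefore descriptions of the measured members. State 21 had the highest level of all states in 45 genes (6.32%), by a margin of at least 0.25 in 34 (4.78%) and by at least 0.5 in 25 (3.51%). Its rank among the 42 states depended on the measure. By the 0.25 margin it ranked 1, ahead of state 38 with 30 genes and a median of 1 over the other states. By the 0.5 margin it ranked 2, behind state 38 with 28 genes. By plain highest level it ranked 3, where state 41 had 61 genes, and by excess over the mean it ranked 6, where state 41 had 65. Of the 34 genes with the 0.25 margin, 17 lay outside the sarcomere lists. The values nearest the limit were Tgfb1i1 (difference 0.534), Igfbp5 and Prrx2 (0.541 each) inside it, and Dok4 (0.494) and Gata6 (0.490) outside it.

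**Figure D1:**
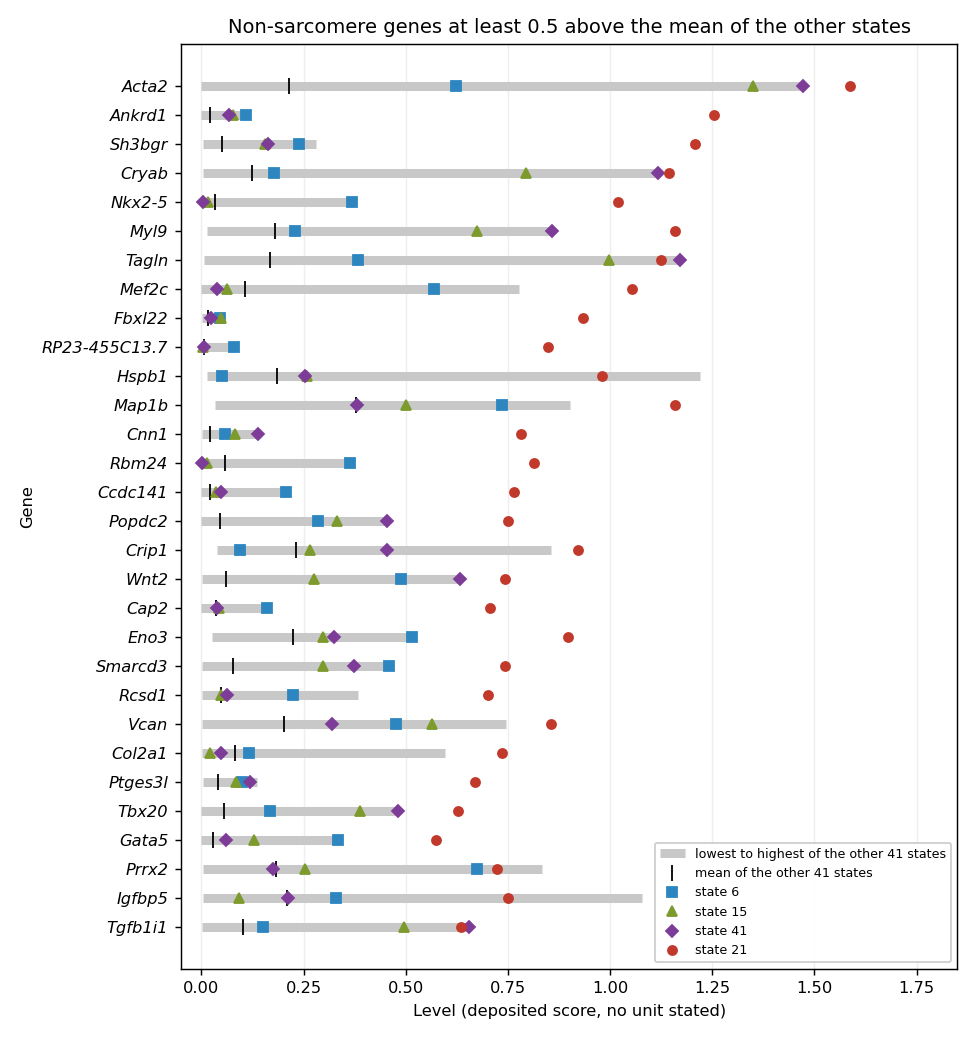
Levels (deposited score, horizontal axis) of the 30 genes outside the sarcomere lists that were at least 0.5 higher in state 21 than the mean of the other states. Red circles are state 21, grey bars span the other 41 states, ticks are their mean, and squares, triangles and diamonds are states 6, 15 and 41. State 21 lies beyond the grey bar in 25 of the 30.

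Cardiac transcription regulators made up 5 of the 30, from 19 measured in their list, next to 6.6% over all genes of the table. Nkx2-5, the homeobox factor that marks cardiac progenitors and muscle, had a level of 1.02, while the other states ran from 0 over a median of 0.0072 to 0.369 in state 6. Its level was 0.015 in state 15 and 0.0037 in state 41. Mef2c, a MADS-box activator of muscle genes, had 1.05, followed by 0.778 in state 36, 0.630 in state 33 and 0.570 in state 6. Smarcd3, a subunit of the BAF chromatin remodeller that works with cardiac factors, had 0.744 against 0.459 in state 6 and 0.374 in state 41. Tbx20, a T-box factor of heart and extraembryonic mesoderm, had 0.628, with 0.482 in state 41, 0.388 in state 15 and 0.167 in state 6. Gata5, a GATA factor of heart and endoderm, had 0.574 against 0.334 in state 6. The other 14 of the 19 measured factors of this list did not reach the limit, and none was 0.5 lower. Gata6 (0.636) and Gata4 (0.479) ranked 2 in state 21, behind state 14 with 0.97 and 0.697. The basic helix-loop-helix factors divided, with Hand2 at 0.338 (rank 3) and Hand1 at 0.374 (rank 13).

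All 3 measured members of the muscle stress and small heat shock list, out of 14 listed, were higher in state 21, next to 6.6% of all genes. Most of the list was not in the table, and Ankrd1 is a marker given for state 21. Nothing about the list as a whole is read from this share. Ankrd1, an ankyrin-repeat protein that shuttles between the sarcomere and the nucleus, had a level of 1.25, and in the other states it ran from 0 over a median of 0.010 to 0.110. Its highest other levels were 0.110 in state 6, 0.105 in state 32, 0.077 in state 15 and 0.067 in state 41, so no other state came within 1.14 of state 21. Cryab, the alpha B-crystallin chaperone of desmin and titin, had 1.14, yet states 14 (1.12) and 41 (1.12) lay beside it and state 15 had 0.795, while state 6 had 0.177. Hspb1, a small heat shock protein that binds actin, had 0.980, below the 1.22 of state 28 and above the 0.714 of state 25 and the 0.050 of state 6. The 3 genes therefore differed in which other states shared them. Cryab overlaps Hspb2 on the opposite strand, and the use of strand in counting is not given in the sources used here.

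Of the 34 listed actin cytoskeleton and contractility genes, 8 were measured and 4 were higher in state 21, next to 6.6% of all genes. These 4 are also the measured smooth muscle markers, so both lists give 1 result. Acta2, smooth muscle actin, had a level of 1.59, followed by 1.47 in state 41, 1.35 in state 15, 0.638 in state 5 and 0.624 in state 6. Tagln, transgelin, had 1.12 and lay between state 41 (1.17) and state 15 (0.998). Myl9, the smooth muscle regulatory light chain, had 1.16 against 0.857 in state 41 and 0.675 in state 15. Cnn1, calponin, which restrains actomyosin in smooth muscle, behaved otherwise: it had 0.783 in state 21 and at most 0.139 in any other state, state 41. Smooth muscle genes were thus not shared as a block, because state 21 stood 0.64 above every other state in Cnn1 and within 0.05 of state 41 in Tagln. Genes outside that list, named because they were higher in state 21, are given next by what they are known to do. Cap2, an actin-turnover protein enriched in heart, had 0.707 against at most 0.161, and Fbxl22, a muscle F-box protein of the Z-disc, had 0.934 against at most 0.047. Sh3bgr, a small protein abundant in heart and skeletal muscle, had 1.21 against at most 0.280 in state 5. Map1b, a microtubule-associated protein known from neurons, had 1.16, followed by state 24 with 0.903. Tgfb1i1 (0.635), a focal adhesion adaptor also called Hic-5, lay just under state 41 (0.655). Crip1 (0.921), a small LIM protein, had 0.855 in state 40, and Rcsd1 (0.702), a regulator of actin capping, had 0.383 in state 32. The list members Cnn3 (0.882), Anxa2 (0.444), Ahnak (0.266) and S100a6 (0.053) did not reach the limit.

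Secreted, matrix and metabolic genes supplied 4 of the 30, from 1 of 16 measured ligands, 2 of 20 matrix genes and 1 of 5 metabolic genes, next to 6.6% over all genes of the table. Wnt2, a Wnt ligand of the early heart and the mesoderm around the lung and allantois, was the ligand that reached the limit. Its level of 0.743 was followed by 0.634 in state 41, 0.488 in state 6, 0.276 in state 15 and 0.268 in state 5, while the median of the other states was 0.0083. State 21 was thus the highest by 0.11, and states 41, 6, 15 and 5 held the gene at lower levels. Tgfb2 had 0.568 (rank 2, state 23 0.711), Igf2 0.725, Bmp2 0.363 and Bmp4 0.335. Of 20 measured matrix genes 2 reached the limit. Vcan, the versican proteoglycan of cardiac jelly, had 0.855 against 0.745 in state 34, and Col2a1, the fibrillar collagen best known from cartilage and notochord, had 0.735 against 0.597 in state 23 and 0.116 in state 6. Igfbp5 (0.75, state 23 1.08) and the homeobox gene Prrx2 (0.724, state 34 0.833) ranked 3. Among membrane genes, Popdc2, a cyclic AMP-binding protein of pacemaking muscle, had 0.751 against 0.453 in state 41. The adhesion gene Cdh2, N-cadherin of cardiac cell contacts, had 0.578, rank 2, and none of 14 measured receptors and adhesion genes reached the limit. Eno3, the muscle enolase, had 0.897 against 0.516 in state 6, the only 1 of 5 measured metabolic genes that did, while the general enolase Eno1 had 1.35 with a mean of 1.27 elsewhere. Rbm24, an RNA-binding splicing regulator of muscle, had 0.815 against 0.363 in state 6, with 0.015 in state 15 and 0.0013 in state 41. Ccdc141, a coiled-coil gene that neighbours titin, had 0.764 against 0.207, and Ptges3l, a co-chaperone-like gene, had 0.671 against 0.135. RP23-455C13.7, a clone-named transcript with no match in the annotation, had 0.848 against 0.079 in state 6.

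No gene in state 21 was 0.5 below the mean of the other states, and 10 (1.4%) were 0.25 below. Both counts are limited by the floor of 0 given above. Pou5f1, the pluripotency factor Oct4, had a level of 0.027 against a mean of 0.411, and Dnmt3b, the de novo DNA methyltransferase, 0.248 against 0.593. The epithelial genes Epcam (0.051 against 0.428), Cldn6 (0.068 against 0.413) and Spint2 (0.111 against 0.423) followed. The metallothioneins Mt1 (0.226 against 0.536) and Mt2 (0.141 against 0.482) were also low. Msx1, Cdx2 and Fst, a homeobox gene of lateral and extraembryonic mesoderm, a caudal factor and the activin antagonist, completed the 10 with 0.090, 0.040 and 0.062. The 15 measured Hox genes ran up to 0.17 in state 21 (Hoxb2), with a median of 0.019.

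State 21 had the highest level of all states in 17 of the 18 measured sarcomere genes, all but Tpm4, next to 6.32% of all genes. Several of them, such as Myh6 and Mybpc3, were near 0 elsewhere and may be in the table only through state 21. The 17 of 18 is therefore a description and no support for a trait of the list. The 17 were 10 of the 11 measured thin filament and Z-disc genes and all 7 measured thick filament genes, and Tpm4, a widely expressed tropomyosin, had a level of 1.05 with a mean of 0.802 elsewhere. Tnnt2, the troponin T that anchors the complex to tropomyosin, had a level of 1.52, with 0.591 in state 6, 0.543 in state 41 and 0.490 in state 15. Tnni1, the slow troponin I of the fetal heart, had 1.42, with 0.769 in state 41, 0.646 in state 6 and 0.599 in state 15. Tnnc1 had 1.40, with 0.419, 0.292 and 0.331 in states 41, 6 and 15. These 3 troponin genes thus had middle levels in all 3 of the other states. At the thick filament Myl4, the atrial essential light chain, had 1.59, with 0.668 in state 6 but 0.219 in state 15 and 0.085 in state 41. Myl3 had 1.27 and at most 0.401 in any other state (state 14), Myh7 1.09 and at most 0.084, and Mybpc3, myosin-binding protein C, 0.756 and at most 0.054. Counted as 0.25 above the mean of the remaining 39 states in states 21, 15 and 41 alike, 6 of the 11 thin filament and Z-disc genes were shared with states 15 and 41 and 0 of the 7 thick filament genes, next to 4.49% of all genes. At a limit of 0.5 none of either group was shared. With so few genes, nothing particular to the thick filament list is read from its 0. These 6 were Actc1, Tnnt2, Tnnc1, Tnni1, Nexn and Tpm4. Myh6 and Myh7 are adjacent near-identical genes, and Actc1 shares much coding sequence with Acta2, so some reads of each pair may have been assigned to the other.

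**Figure D2:**
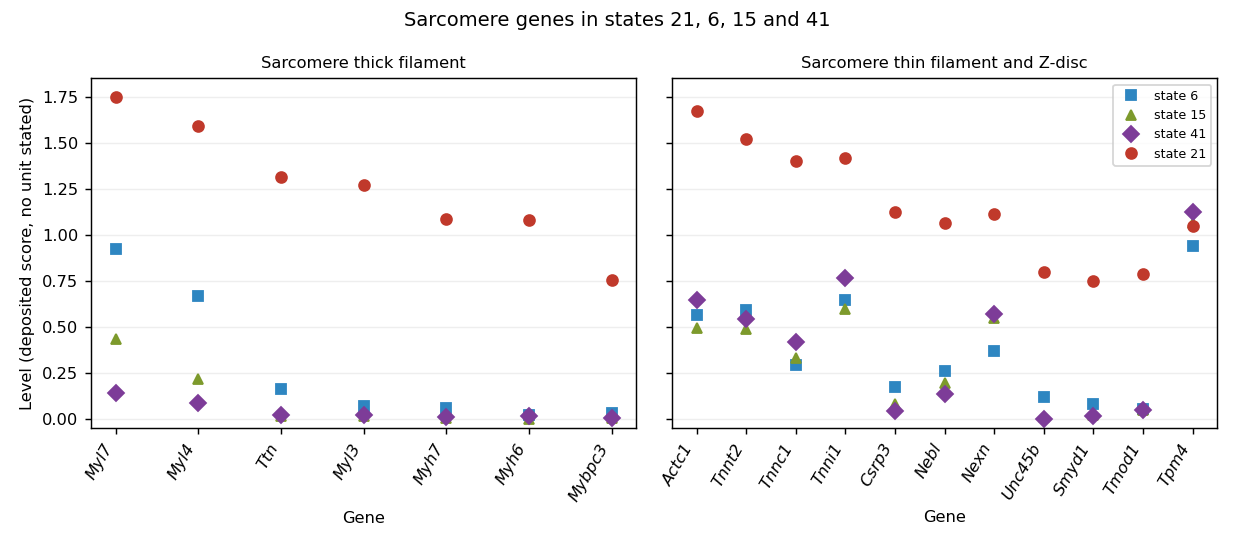
Levels (deposited score, vertical axis) of the 7 measured thick filament genes and the 11 measured thin filament and Z-disc genes in states 21 (circles), 6 (squares), 15 (triangles) and 41 (diamonds). State 21 is highest of the 4 in every gene but Tpm4. In states 15 and 41 Actc1, Tnnt2, Tnnc1, Tnni1 and Nexn lie between 0.331 and 0.769 while Ttn, Myl3, Myh7, Myh6 and Mybpc3 lie below 0.021. Neither group is uniform there. Of the thick filament genes, Myl7 has 0.435 and 0.139 and Myl4 has 0.219 and 0.085 in states 15 and 41. Of the thin filament and Z-disc genes, Csrp3 reaches 0.084 in state 15, and Tmod1, Smyd1 and Unc45b stay below that in both states.

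At the limit of 0.5, the genes that state 21 shared with states 15 and 41 were 3 actin-based contractility genes and a chaperone. Requiring each of the 3 states to be at least 0.5 above the mean of the remaining 39 states left 4 genes (0.562%), Acta2, Tagln, Cryab and Myl9, none of them in the sarcomere lists. They were 8.16% of the 49 genes, out of 712, that met the limit in state 21. They were 12.5% of the 32 genes, out of 712, that met it in both state 15 and state 41. Over all genes, the share to set beside the 8.16% is 32 of 712, and beside the 12.5% it is 49 of 712. Both shares of shared genes were above these. The mean of the remaining states was 0.152 for Acta2, 0.120 for Tagln, 0.081 for Cryab and 0.151 for Myl9. Their highest level in the remaining states was 0.638 in state 5 for Acta2, 0.602 in state 16 for Tagln and 0.640 in state 34 for Myl9. Cryab alone had a remaining state, state 14 with 1.12, at the level of state 21. At a limit of 0.25 the shared set grew to 32 genes (4.49%), 26 of them outside the sarcomere lists. Of these 26, 13 were lower in state 21 than in both states 15 and 41, and 9 were higher than in both, whereas 5 of the 6 sarcomere genes were higher than in both. Popdc2 (0.751, with 0.333 in state 15 and 0.453 in state 41), Tbx20 and Gata6 (0.636, 0.398 and 0.555) were among the cardiac members. The imprinted growth factor Igf2 (0.725, 0.928 and 0.960), the semaphorin receptor Nrp1 (0.674, 0.922 and 1.18), the intermediate filament gene Vim (0.834, 1.22 and 1.24) and the keratin Krt8 (0.911, 1.38 and 1.43) were lower in state 21 than in the other 2. For 12 genes the 3 highest states were exactly 21, 15 and 41, among them Acta2, Tagln, Myl9, Cnn1, Popdc2, Tbx20, Tgfb1i1, Tnnc1 and Nexn. Pairwise, and at 0.5, state 21 shared 8 genes with state 41, the most of any state, which adds Wnt2, Tgfb1i1, Actc1 and Tnni1 to the 4. With state 6 it shared 5, which were Myl7, Myl4, Tnnt2, Tnni1 and Prrx2, and with state 15 it shared 4. The partner states differed widely in how many genes they had to share. Set against the mean of its own other states, state 41 had 65 genes past the limit, state 15 had 33 and state 6 had 3. That mean includes state 21, so the 3 is no denominator for the 5. The pairwise counts are therefore not read as a ranking of likeness to state 21.

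State 21 differed from states 15 and 41 in both directions. A gene was counted here when it differed from the mean of the pair by 0.5 and lay outside both levels. By this measure 39 genes (5.48%) were higher in state 21, of which 22 lay outside the sarcomere lists, and 27 (3.79%) were lower, all of them outside. Higher genes included Ankrd1, Sh3bgr, Nkx2-5, Mef2c (0.063 in state 15 and 0.039 in state 41), Fbxl22, Rbm24 and Hspb1 (0.260 and 0.253). Of the 20 measured matrix genes 1 was higher and 6 were lower, and of the 15 measured markers of extraembryonic and amnion mesoderm 8 were lower, markers for which states 41 and 15 had the highest sums. Of the 19 measured cardiac transcription factors 2 were higher and 2 lower. Lum, the collagen-binding lumican, had 0.017 in state 21, 0.904 in state 15 and 1.18 in state 41. Col1a1 had 0.091, 0.700 and 1.12, Col3a1 had 0.051, 0.643 and 0.896, and Postn, periostin, had 0.0068, 0.461 and 1.14. Regulators and signals were among the lower genes, with Hand1 at 0.374, 1.09 and 1.15, Bmp4 at 0.335, 0.758 and 0.971, and Msx1 at 0.090, 0.639 and 0.944. So were Dlk1 (0.400, 1.13 and 1.34), an imprinted Notch-like protein, Igfbp2 (0.461, 1.19 and 1.37), the calcium-dependent membrane protein Anxa2 (0.444, 0.913 and 1.20) and the glucose transporter Slc2a1 (0.892, 1.37 and 1.42).

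**Figure D3:**
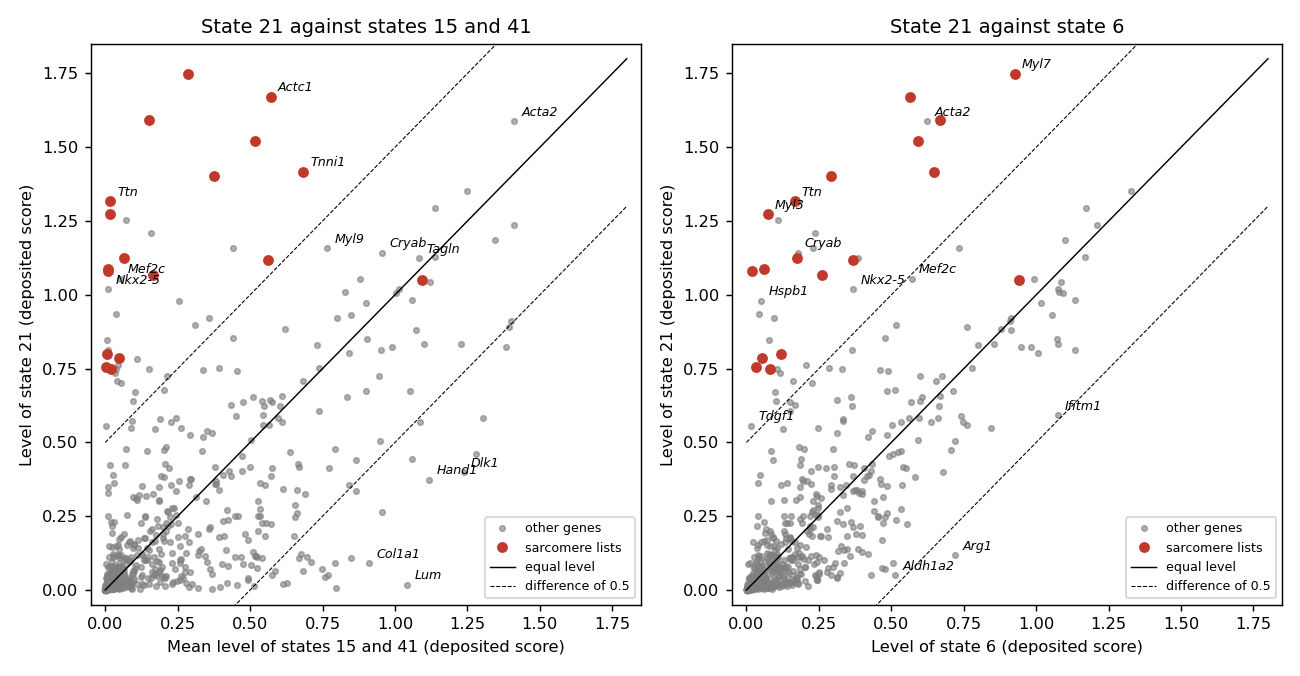
Level of each of the 712 genes in state 21 (vertical axis, deposited score) against the mean of states 15 and 41 (left) and against state 6 (right). Red points are sarcomere genes, the solid line is equality and the dashed lines a difference of 0.5. Acta2, Cryab and Tagln lie within 0.5 of equality on the left, and Arg1 is the only gene below the lower dashed line on the right.

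Against state 6, the state most like it, the genes that differed were mostly higher in state 21, and how strongly depended on the limit. There were 36 higher and 1 lower at 0.5, and 61 higher and 19 lower at 0.25. With a lowest level of 0 in state 21, a gene under 0.5 in state 6 had no room to count as lower at 0.5. By a difference of 0.5, the 36 higher genes (5.06%) included 19 outside the sarcomere lists, and the 1 lower gene (0.14%) was Arg1, the arginase gene, with 0.117 against 0.721. Acta2 (1.59 against 0.624), Cryab (1.14 against 0.177), Myl9 (1.16 against 0.229) and Tagln (1.12 against 0.384) were higher than in state 6 but not higher, by the limit, than in states 15 and 41. These 4 were the same genes as the shared set. Both rules draw on the same columns and ask for much the same pattern, so the match is not a separate result. Nkx2-5 (1.02 against 0.369), Hspb1 (0.980 against 0.050), Crip1 (0.921 against 0.096), Cnn1 (0.783 against 0.059) and Col2a1 (0.735 against 0.116) were higher than in state 6 and than in states 15 and 41. In all, 32 genes were higher in both comparisons, 15 of them outside the sarcomere lists. Conversely Mef2c, Map1b, Rbm24, Eno3, Rcsd1, Prrx2 and Igfbp5 were higher than in states 15 and 41 only, since state 6 lay within 0.5 of state 21 in these 7. Chchd10 (0.75), a mitochondrial protein, Tdgf1 (0.557), the Nodal co-receptor Cripto, and Atp1b1 (0.641), a sodium pump subunit, were higher than in all 3 states without reaching 0.5 over the mean of all. Tdgf1 had 0.017 in state 6, 0.0029 in state 15 and was listed at 0 in state 41, while states 37 (0.947), 3 (0.732) and 17 (0.722) had more than state 21. On the lower side Ifitm1 (0.592 against 1.07), Aldh1a2, the retinoic acid synthesising enzyme (0.051 against 0.513), Msx1 (0.090 against 0.506), Twist1 (0.070 against 0.477), Foxf1 (0.076 against 0.468) and Hoxb1 (0.051 against 0.431) fell short of 0.5. Several of these are genes of posterior and splanchnic mesoderm.

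Across gene-centred levels, state 21 was most like state 6 (Pearson r 0.534 over 712 genes), then state 15 (0.350), state 41 (0.309) and state 5 (0.213). Without the sarcomere lists, over 694 genes, r was 0.497 with state 6, 0.390 with state 15, 0.366 with state 41 and 0.273 with state 5. The r with states 15 and 41 was slightly higher without the sarcomere genes, and that with state 6 slightly lower. Each of these shifts was under 0.1, the limit used here for a change in r, so no direction is read from them. State 3 had the lowest r, -0.244. These values describe genes in columns that share the same libraries and carry no p, because genes are not replicates.

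**Figure D4:**
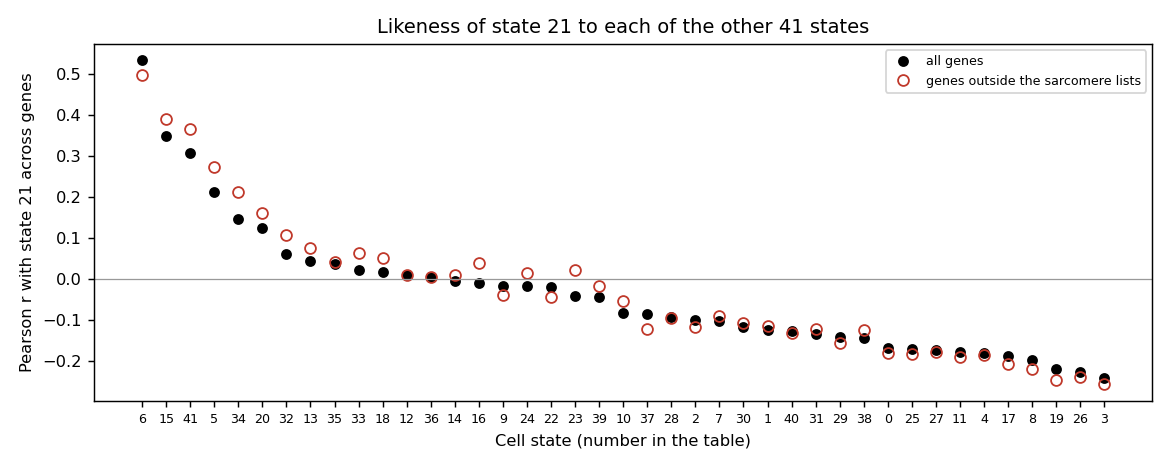
Pearson r (vertical axis) of state 21 with each of the other 41 states (horizontal axis, ordered by r) across gene-centred levels. Filled circles use all 712 genes and open circles the 694 outside the sarcomere lists. States 6, 15, 41 and 5 come first by either measure.

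Of the 47 genes higher in state 21, 46 were found in GENCODE M21 (GRCm38), and 19 of these overlap a gene on the opposite strand. Overlaps were not looked up for most other genes of the table. The 19 therefore has no share over all genes beside it and is not read as a trait of the 47. Ankrd1 lies at chr19:36111961-36120099 and Acta2 at chr19:34241090-34255590, both on the minus strand with no overlapping gene. Nkx2-5 at chr17:26838664-26845009 (-), Wnt2 at chr6:17988940-18030585 (-), Mef2c at chr13:83504034-83667080 (+), Myl9 at chr2:156775420-156781658 (+) and Cnn1 at chr9:22099216-22109630 (+) also had none. Tagln, at chr9:45929619-45936058 (-), overlaps Pcsk7, Fbxl22, at chr9:66508459-66514593 (-), overlaps Herc1, and Gata5, at chr2:180325133-180334699 (-), overlaps Gata5os. The 10x chemistry keeps the strand of a read, but whether counting used it is not given in the sources used here, so levels of such pairs carry that uncertainty.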

How the data were processed

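Cells of 8 pooled wild-type libraries were profiled with 10x Genomics 3′ chemistry, per the labels' protocols. Cell Ranger and the build mm10 are named, with no version, per the submitters' processing notes. The deposited score is the centre of each of 42 cell states for each of 712 genes, per the file headers. Normalisation, doublet removal, clustering and gene choice are not given in the sources used here, nor is whether the score is logarithmic, so no fold changes are given. Columns were taken to pool all libraries, since none names one. Depth and cells per state are unknown, so a low level may rest on few reads.

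Differences, ranks and Pearson correlations were computed with Python 3.11.15, pandas 2.3.3 and numpy 2.4.6. A gene was counted at a difference of 0.5. The genes named were the markers, the 15 highest and 10 lowest differences, genes highest by 0.25, shared genes, the 10 largest differences from state 6 and from states 15 and 41, and list members. The members and lists were chosen with earlier results of these data known. The code was tested on simulated data, where it recovered all 200 planted differences. The planted differences were larger than the limit and far above the simulated noise. This checks the code and not the choice of limit or the genes near it. Positions came from GENCODE M21 (704 of 712 genes found), promoters from RefSeq. Alternative thresholds, references, centrings and correlations were tried.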

Additional observations from a re-analysis of the deposited data

How the results depend on the processing

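Of 55 alternatives computed, 32 kept the count within 1.5 times its value (or r within 0.1) and 23 did not. The threshold moved the counts most. Genes higher than the mean of the other states went from 47 to 80 at 0.25 and 29 at 0.75, genes lower from 0 to 10 at 0.25, and those outside the sarcomere lists from 30 to 63 and 14. Against states 15 and 41, higher genes went from 39 to 63 and 20, and lower genes from 27 to 81 and 5, or 43 against state 41 alone. Against state 6, higher genes went from 36 to 61 and 21, and lower genes from 1 to 19 and 0. The set shared with states 15 and 41 had 4 genes at 0.5, 32 at 0.25 and 2 (Acta2 and Tagln) at 0.75. Against the median of the remaining states it held 10 genes, and with state 6 left out 7, both with Acta2, Tagln, Cryab and Myl9 among them. Spearman's rho was 0.524 with state 15 and 0.516 with state 41, and without centring genes r was 0.717, 0.608 and 0.542 with states 6, 15 and 41. State 6 stayed nearest and state 15 second in each setting tried. No paired analysis was possible because no column belongs to a single library. Unknown depth and cell numbers per state limit low levels and small differences most.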

Other observations

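Of 9 measured imprinted genes, 0 were 0.5 higher in state 21 than the mean of the other states, next to 6.6% of all genes, and their median difference was 0.102. Mest had a level of 1.24 in state 21, 1.39 in state 15 and 1.43 in state 41, and Plagl1 had 0.416, 0.468 and 0.869. Keratins and simple epithelial genes, 10 measured, had a median difference of -0.094 from the other states. Within that list Krt8 (0.911) and Krt18 (0.823) had levels above their means over the other states (0.645 and 0.679), while Cdh1 (0.021) and Epcam (0.051) lay below theirs (0.207 and 0.428). Fabp3, the fatty acid carrier of heart muscle, had 0.364 in state 21, 0.040 in state 6 and 1.30 in state 14.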
